A study of Peromyscus polionotus with 11 samples.

Results

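The genes described here mark the medium spiny neuron, the GABA-releasing projection neuron of the striatum. They are Ppp1r1b, Rgs9, Rasd2, Pde1b and Drd2, which act in signalling, and Foxp1, Bcl11b and Meis2, which encode transcription factors. They were taken by gene symbol from a list of 9 names, and every probe set that carries 1 of these symbols and no other was used: 16 probe sets of 8 genes, of 22626 probe sets and 12393 genes in all. The ninth name, Adora2a, was not analysed here. The list was chosen by earlier results on the same arrays, namely a higher intensity in the bed nucleus than in the preoptic area and a lower one in the preoptic area on short days. For those comparisons the values below are a description and no test is read from them.

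RNA was punched from single nuclei of the brains of oldfield mice (Peromyscus polionotus), a North American deer mouse relative, and hybridised to Affymetrix arrays whose probes match the house mouse. The 4 groups were the bed nucleus of the stria terminalis on short days (2 samples, numbered 4 and 5) and on long days (3 samples, 1 to 3), and the medial preoptic area on short days (3 samples, 4 to 6) and on long days (3 samples, 1 to 3). They are called bed nucleus and preoptic area below. The series' design text calls the samples independent, but the labels do not tie them to named animals, so p-values measure the spread between these samples. The sources used here do not give the age or sex of the mice or the hours of light. A punch holds many cell types, and fewer cells of a type and less RNA per cell cannot be told apart in such samples.

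Medium spiny neurons receive glutamate from cortex and thalamus and dopamine from the midbrain. Dopamine raises cAMP through D1 receptors and lowers it through D2 receptors. cAMP-dependent kinase then phosphorylates DARPP-32, the product of Ppp1r1b, which turns it into an inhibitor of protein phosphatase 1. The bed nucleus is a forebrain relay for fear, stress and social behaviour that holds many GABA neurons, and the medial preoptic area is a hypothalamic region that governs mating and parental behaviour. Several of these genes are also used outside the striatum: Foxp1, Bcl11b and Meis2 are expressed in other forebrain neurons too.

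The deposited values are linear intensities, and every array has a median of 19. Of the 16 probe sets, 11 had a mean over the 11 arrays above 19 and 5 did not. No detection call was used, so a probe set at or below 19 may carry little signal of its gene. Drd2, the D2 receptor and a defining gene of one class of medium spiny neuron, was among these, and Ppp1r1b, the most widely used marker of the whole cell type, averaged only 19.7. The name of the gene set is therefore a name for the list, and the presence of striatal neurons in the punches is not shown by it. The arrays that stood apart are here 1 of each nucleus, at the ends of the first principal component over 20380 probe sets with 1 symbol. Sample 6 of the short-day preoptic area lay at -29.7 and sample 1 of the long-day bed nucleus at 24.1. The other arrays lay between -5.80 and 18.1. Sample 1 was nearer to sample 2 of its group, at 18.1, and so stood apart less clearly. For the 8 genes, results that rest on the arrays that stood apart are also given without them.

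The plot of intensities by array shows 1 probe set for each gene, that with the highest mean over all arrays.

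**Figure D1:**
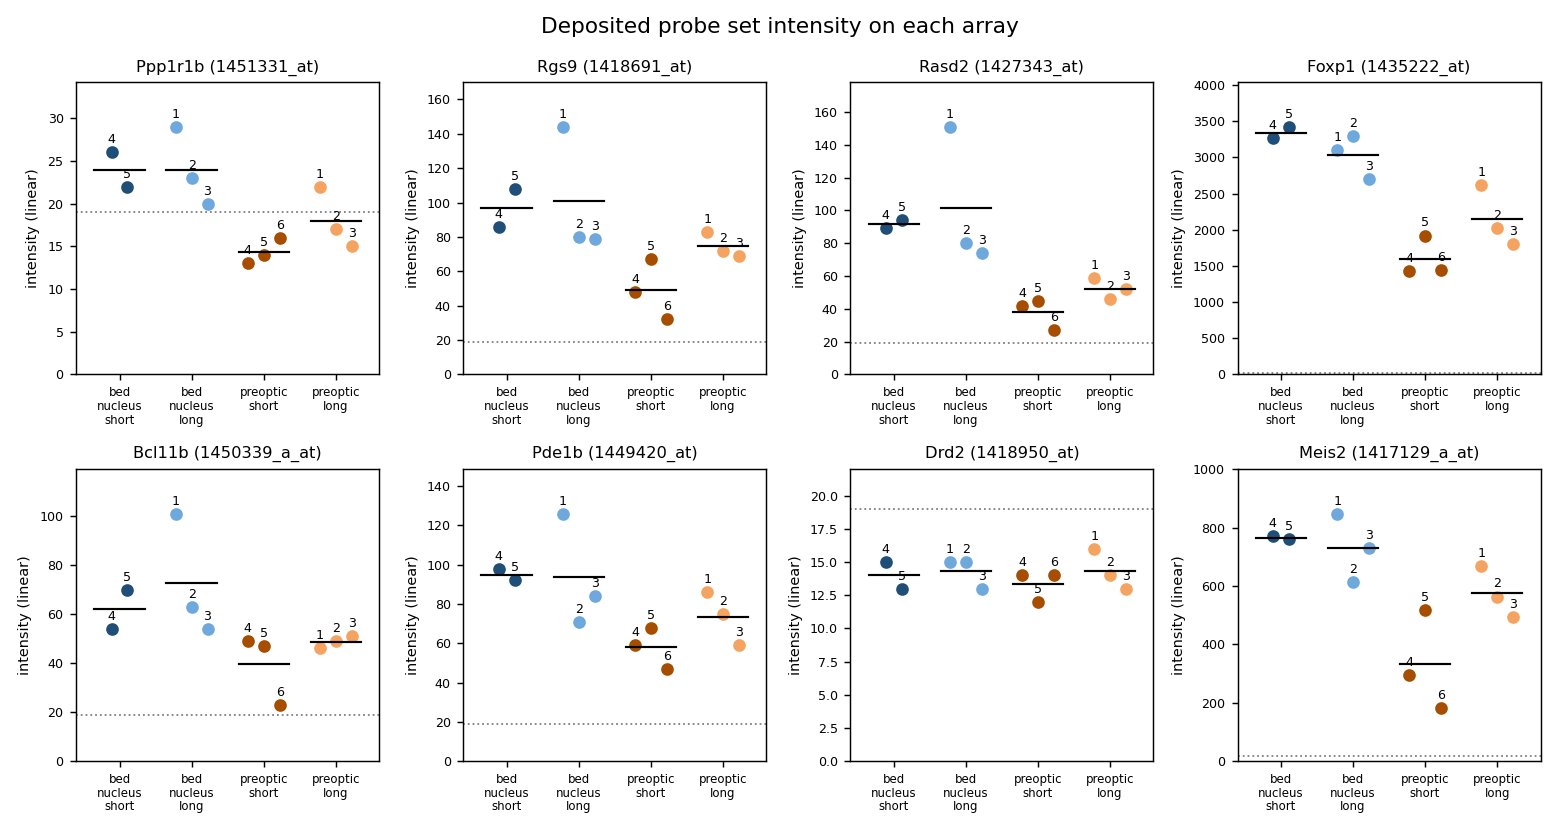
Deposited intensity (linear scale from 0) of 1 probe set for each of the 8 genes, with 1 point per array labelled by its sample number; black bars are group means over 2 samples (bed nucleus, short days) or 3 samples (the other groups), and the dotted line is the array median of 19. Rasd2, Foxp1 and Bcl11b did not overlap between the nuclei, and Drd2 stayed below the dotted line on every array.

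Among the signalling genes, Rasd2 stood out between the nuclei. It encodes Rhes, a small GTP-binding protein enriched in the striatum. Its main probe set, 1427343_at, read 89 and 94 in the short-day and 151, 80 and 74 in the long-day bed nucleus, against 42, 45 and 27 in the short-day and 59, 46 and 52 in the long-day preoptic area. Every bed nucleus sample was above every preoptic sample. The log2 difference between the nuclei, averaged over day lengths, was 1.09 ± 0.16 (SE of the model), or 2.14-fold. By group the mean intensities were 91.5 ± 3.54 (SD, n = 2) in the short-day and 102 ± 42.8 (n = 3) in the long-day bed nucleus, against 38.0 ± 9.64 (n = 3) in the short-day and 52.3 ± 6.51 (n = 3) in the long-day preoptic area. The order was thus long-day bed nucleus, short-day bed nucleus, long-day preoptic area, short-day preoptic area, and the day lengths within the bed nucleus differed by less than their spread. The second Rasd2 probe set, 1427344_s_at, read between 11 and 18 on all arrays and differed by 0.25 ± 0.11.

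Rgs9, whose product speeds the shut-off of inhibitory G proteins and whose long form is typical of the striatum, read 86 and 108 in the short-day and 144, 80 and 79 in the long-day bed nucleus, against 48, 67 and 32 in the short-day and 83, 72 and 69 in the long-day preoptic area. The nuclei overlapped through sample 1 of the long-day preoptic area, which was above the lowest bed nucleus samples. The log2 difference was 0.71 ± 0.17, or 1.64-fold, with means of 99.4 ± 27.5 (SD, n = 5) in the bed nucleus and 61.8 ± 18.5 (SD, n = 6) in the preoptic area. The second Rgs9 probe set, 1426033_at, read 10 to 17 and differed by 0.13 ± 0.11.

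Pde1b encodes a phosphodiesterase that breaks down cyclic nucleotides when activated by calcium and calmodulin. It read 98 and 92 in the short-day and 126, 71 and 84 in the long-day bed nucleus, against 59, 68 and 47 in the short-day and 86, 75 and 59 in the long-day preoptic area. The nuclei overlapped, and the log2 difference was 0.53 ± 0.14 or 1.44-fold. Short-day bed nucleus samples were above every preoptic sample.

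Ppp1r1b encodes DARPP-32, the phosphatase inhibitor on which dopamine and glutamate signals meet. It read 26 and 22 in the short-day and 29, 23 and 20 in the long-day bed nucleus, against 13, 14 and 16 in the short-day and 22, 17 and 15 in the long-day preoptic area. All bed nucleus samples were above the array median, and 1 of the 6 preoptic samples was. The log2 difference was 0.58 ± 0.12, at an intensity where 1 unit is 0.07 on the log2 scale. With an offset of 16 added to every intensity before the log2 was taken, the difference was 0.32.

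Drd2 read 15 and 13 in the short-day and 15, 15 and 13 in the long-day bed nucleus, against 14, 12 and 14 in the short-day and 16, 14 and 13 in the long-day preoptic area. The groups overlapped throughout, the log2 difference was 0.04 ± 0.10, and no level of the D2 receptor can be read from values this low.

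Of the transcription factors, Foxp1 is a forkhead repressor of developing and adult medium spiny neurons. Its main probe set, 1435222_at, read 3262 and 3422 in the short-day and 3097, 3293 and 2697 in the long-day bed nucleus, against 1428, 1920 and 1437 in the short-day and 2615, 2017 and 1805 in the long-day preoptic area. The lowest bed nucleus sample was just above the highest preoptic sample. The log2 difference was 0.80 ± 0.12, or 1.74-fold. By group the means were 3342 ± 113 (SD, n = 2) in the short-day and 3029 ± 304 (n = 3) in the long-day bed nucleus, against 1595 ± 281 (n = 3) in the short-day and 2146 ± 420 (n = 3) in the long-day preoptic area. The groups ranked in the order short-day bed nucleus, long-day bed nucleus, long-day preoptic area and short-day preoptic area, and within each nucleus the samples of the 2 day lengths overlapped.

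Foxp1 is covered by 7 probe sets, which did not give 1 size. Apart from the main one, 1421141_a_at read 77 and 78 in the short-day and 152, 88 and 76 in the long-day bed nucleus, against 32, 48 and 25 in the short-day and 58, 47 and 45 in the long-day preoptic area. Its nuclei did not overlap, and it differed by 1.11 ± 0.17 between them. 1421142_s_at, whose suffix marks probes that can match more than 1 transcript, differed by 0.81 ± 0.15. The other 4 differed by 0.38 ± 0.14 (1455242_at), 0.37 ± 0.12 (1421140_a_at), 0.16 ± 0.14 (1438802_at) and 0.12 ± 0.11 (1435221_at). All 7 were thus higher in the bed nucleus.

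Meis2, a homeodomain factor of the embryonic striatal primordium and of its adult neurons, read 771 and 760 in the short-day and 848, 614 and 729 in the long-day bed nucleus, against 296, 517 and 183 in the short-day and 667, 564 and 493 in the long-day preoptic area. The long-day groups overlapped, and every short-day bed nucleus sample was above every preoptic sample. The log2 difference over day lengths was 0.84 ± 0.18, or 1.79-fold. By group the means were 766 ± 7.78 (SD, n = 2) in the short-day and 730 ± 117 (n = 3) in the long-day bed nucleus, against 332 ± 170 (n = 3) in the short-day and 575 ± 87.5 (n = 3) in the long-day preoptic area.

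Bcl11b, also known as Ctip2, is a zinc-finger factor needed for medium spiny neurons to mature and is also a marker of deep cortical projection neurons. It read 54 and 70 in the short-day and 101, 63 and 54 in the long-day bed nucleus, against 49, 47 and 23 in the short-day and 46, 49 and 51 in the long-day preoptic area. The nuclei did not overlap, but the lowest bed nucleus samples were only a few units above the highest preoptic sample, and the log2 difference was 0.62 ± 0.18 or 1.54-fold.

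Averaged over day lengths, all 16 probe sets were higher in the bed nucleus, by 0.04 to 1.11. The median over the 8 genes was 0.66, against 0.00 over all genes. At an adjusted p under 0.05 in limma over all probe sets, 7 of the 16, from Ppp1r1b, Rgs9, Rasd2, Foxp1 and Meis2, were called higher, beside 0.464% of all probe sets. Groups of the 2 nuclei did not overlap, with the bed nucleus higher, for 4 of the 16, beside 0.703% of all. Since the list was chosen with this comparison known, these counts describe it and nothing is read from them. The 7 became 3 without sample 5 of the short-day bed nucleus, and 4 each without sample 4 of the short-day bed nucleus, sample 1 of the long-day bed nucleus, sample 4 of the short-day preoptic area, or sample 2 or 3 of the long-day preoptic area. Without both arrays that stood apart 3 were called, of Rasd2 and Foxp1, and the median was 0.49.

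**Figure D2:**
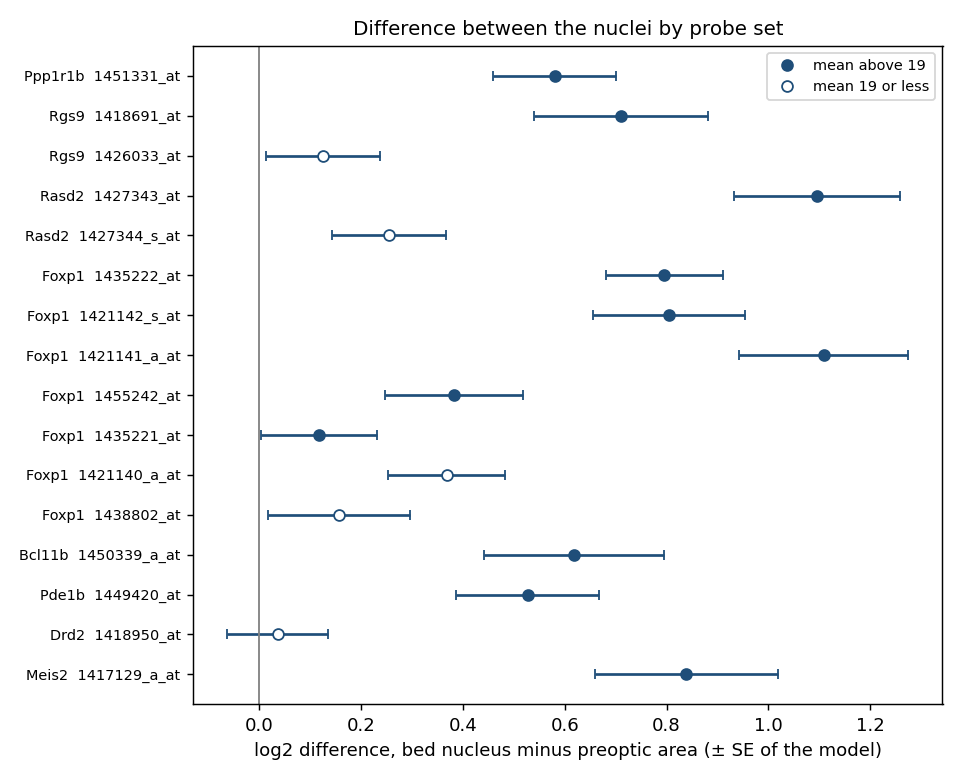
Log2 difference between the bed nucleus and the preoptic area, averaged over day lengths, for all 16 probe sets, with 1 row per probe set; bars are the standard error of the model, filled points have a mean intensity above 19 and open points a mean of 19 or less. All 16 points lie right of 0, from 0.04 for Drd2 to 1.11 for Foxp1 1421141_a_at.

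The difference between the nuclei is also given for each day length. In short-day samples the median log2 difference over the 8 genes was 0.89 and in long-day samples 0.40, against -0.00 and 0.01 over all genes. Meis2 differed by 1.33 on short days and by 0.34 on long days, Rgs9 by 1.04 and 0.38, and Foxp1 by 1.08 and 0.51. Rasd2 differed by 1.30 on short days and 0.89 on long days, and Bcl11b was nearly equal on each, at 0.71 and 0.53. Of the 16 probe sets, 15 were higher in the bed nucleus on short days and 14 on long days. The exceptions were Foxp1 1435221_at on short days (-0.09), and Rgs9 1426033_at (-0.04) and Foxp1 1438802_at (-0.01) on long days. On short days 4 of the 16 probe sets were called higher, of Rasd2, Foxp1 and Meis2, beside 0.146% of all, and 11 of 16 did not overlap, beside 8.86%. On long days none was called, beside 0.084%, and 7 of the 16 had an unadjusted p under 0.05, beside 10.5%. On long days 4 of 16 did not overlap, beside 6.69%. The 4 calls of short days became 0 without either of the short-day bed nucleus samples, 1 without sample 6 and 2 without sample 4 of the short-day preoptic area. On long days the count became 1 without sample 3 of the long-day bed nucleus or without sample 6 of the short-day preoptic area, which enters only through the shared spread. These comparisons use the same arrays as the mean over day lengths.

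Within the preoptic area all 8 genes had a lower mean on short days than on long days. The log2 difference was -0.91 ± 0.24 for Meis2, -0.67 ± 0.23 for Rgs9, -0.49 ± 0.22 for Rasd2 and -0.42 ± 0.15 for Foxp1. It was -0.37 ± 0.24 for Bcl11b, -0.34 ± 0.19 for Pde1b, -0.32 ± 0.16 for Ppp1r1b and -0.10 ± 0.13 for Drd2. Short-day samples did not overlap with long-day samples for Rgs9 and Rasd2, where even the highest short-day values of 67 and 45 were just below the lowest long-day values of 69 and 46. The other 6 genes overlapped: for Meis2, sample 5 of the short-day preoptic area, at 517, was above sample 3 of the long-day area, at 493. Over the 16 probe sets the difference ran from -0.91 to 0.13, and 2 of the Foxp1 probe sets, 1435221_at and 1455242_at, were not lower on short days.

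None of the 16 probe sets was called in the preoptic area, beside 0% of all probe sets, and 5 of 16 had an unadjusted p under 0.05, beside 3.5% of all. The 2 that did not overlap and were lower stand beside 2.55% of all. The list was proposed with this comparison in view, so the shared direction is a description. The median over the 8 genes was -0.40, and 0 over all genes. It rested partly on sample 6 of the short-day preoptic area, the lowest preoptic sample for 5 of the 8 genes. Without that array and sample 1 of the long-day bed nucleus the median was -0.31, Meis2 differed by -0.54, Rgs9 by -0.39 and Bcl11b by -0.02.

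The genes were not proposed on day length in the bed nucleus, so this comparison was tested. Its arrays did enter the difference between the nuclei by which the list was chosen, so the test is not fully separate from that choice. No gene was called. Foxp1 had a log2 difference of 0.15 ± 0.17 (95% interval -0.21 to 0.50; adjusted p = 0.772 in limma), and Meis2 one of 0.08 ± 0.27 (-0.48 to 0.64; adjusted p = 0.931). Pde1b differed by 0.06 ± 0.21 (-0.38 to 0.50; adjusted p = 0.931) and Ppp1r1b by 0.01 ± 0.18 (-0.36 to 0.39; adjusted p = 0.987). These 4 genes had a higher fitted mean on short days, each by less than its standard error.

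The other 4 had a lower one. Rgs9 differed by -0.01 ± 0.25 (-0.54 to 0.52; adjusted p = 0.996), Rasd2 by -0.07 ± 0.24 (-0.58 to 0.43; adjusted p = 0.929), Bcl11b by -0.19 ± 0.26 (-0.74 to 0.36; adjusted p = 0.817) and Drd2 by -0.03 ± 0.15 (-0.34 to 0.27; adjusted p = 0.947). The median over the 8 genes was 0.00, against -0.03 over all genes. Over the 16 probe sets none was called, beside 0.0442% of all, and none had an unadjusted p under 0.05, beside 12.7% of all. Short and long days did not overlap for 1 probe set that was higher, beside 10.2%, and 1 that was lower, beside 13.5%. Both belong to Foxp1 and point in opposite directions: 1455242_at differed by 0.36 ± 0.20 and 1435221_at by -0.29 ± 0.17. The intervals reach from -0.74 to 0.64 over the 8 genes, so changes within them were not detectable with 2 and 3 samples. Sample 1 of the long-day bed nucleus was the highest of its nucleus for 7 of the 8 genes, counting Drd2, where it was tied. Without this array and sample 6 of the short-day preoptic area the median was 0.18. Rasd2 then differed by 0.25, Rgs9 by 0.28 and Bcl11b by 0.08, with none called.

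**Figure D3:**
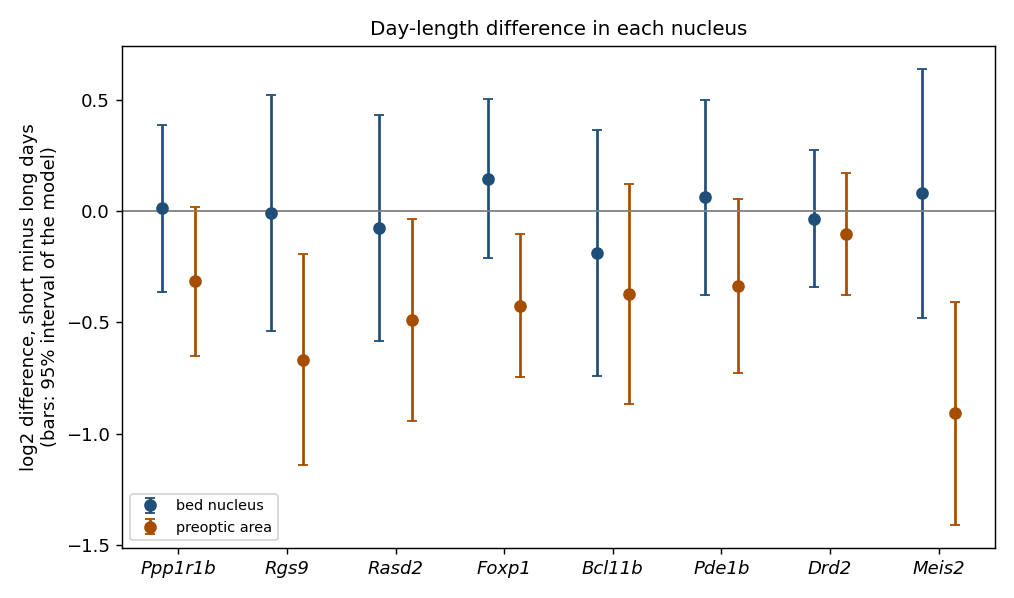
Log2 difference between short and long days for 1 probe set of each gene, in the bed nucleus and in the preoptic area; points are fitted differences and bars their 95% intervals in the linear model. All 8 preoptic points lie below 0, while the bed nucleus points lie on either side of 0, between -0.19 and 0.15.

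The day-length difference of the bed nucleus minus that of the preoptic area was positive for all 8 genes over the 11 arrays. For Bcl11b it was -0.17 without sample 6 of the short-day preoptic area, and for Drd2 -0.03 without sample 4 of the short-day bed nucleus. Over all arrays it was 0.99 ± 0.36 for Meis2, 0.66 ± 0.34 for Rgs9, 0.57 ± 0.23 for Foxp1, 0.41 ± 0.33 for Rasd2, 0.40 ± 0.28 for Pde1b, 0.33 ± 0.24 for Ppp1r1b, 0.18 ± 0.35 for Bcl11b and 0.07 ± 0.20 for Drd2. None of the 16 probe sets was called, beside 0% of all, and 2 had an unadjusted p under 0.05, beside 8.34%. The difference contains the preoptic values by which the list was chosen, so it too is a description.

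Arrays of 1 group differed in the level of most of these genes. When each gene's log2 intensity was centred on its own mean over the 11 arrays and the 8 genes were averaged, the short-day bed nucleus samples were at 0.34 and 0.37, and the long-day bed nucleus samples at 0.71, 0.21 and 0.14. The short-day preoptic samples were at -0.47, -0.24 and -0.85, and the long-day preoptic samples at 0.12, -0.11 and -0.21. Every bed nucleus sample was above every preoptic sample, though sample 3 of the long-day bed nucleus and sample 1 of the long-day preoptic area were almost level. The group means were 0.35 ± 0.03 (SD, n = 2) in the short-day and 0.35 ± 0.31 (n = 3) in the long-day bed nucleus, against -0.52 ± 0.31 (n = 3) in the short-day and -0.07 ± 0.17 (n = 3) in the long-day preoptic area. Sample 1 of the long-day preoptic area was the highest of its nucleus for 7 of the 8 genes, and sample 3 of the long-day bed nucleus the lowest of its nucleus for 6. Among those 6, Bcl11b and Drd2 were each tied with a short-day bed nucleus sample. Not every gene followed: in sample 6 of the short-day preoptic area, the lowest by the mean, Ppp1r1b was at -0.26, the highest of its group, and in sample 1 of the long-day preoptic area, the highest by the mean, Bcl11b was at -0.18, the lowest of its group. Pde1b followed the shared profile most closely, with a root mean square distance of 0.13 on the log2 scale, and Drd2, which hardly varied, least closely at 0.39.

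**Figure D4:**
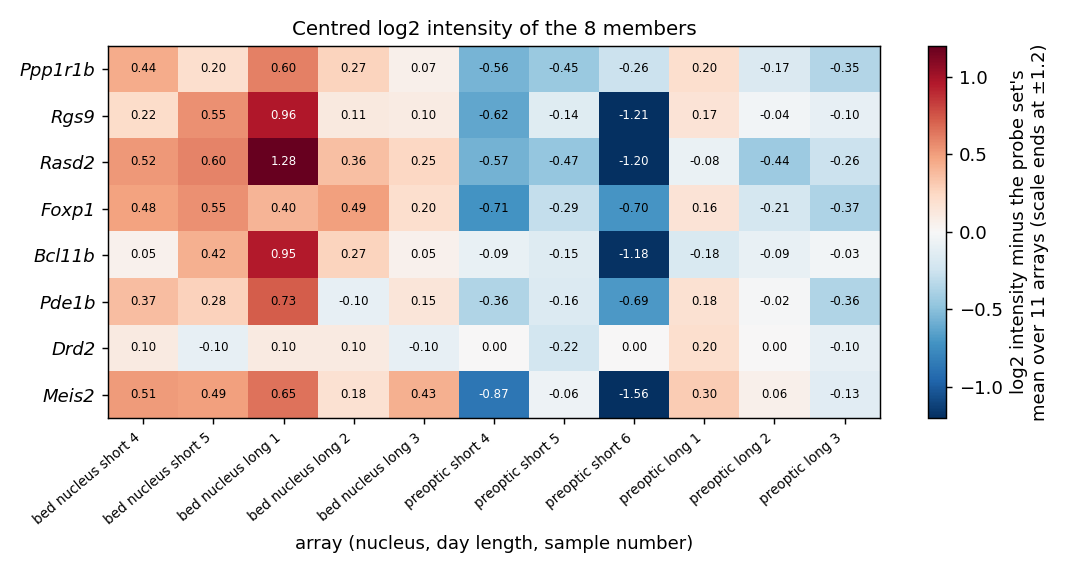
Log2 intensity of 1 probe set per gene (rows) on each of the 11 arrays (columns, named by nucleus, day length and sample number), less that probe set's mean over the 11 arrays; red is higher, blue is lower, and the number in each cell is the value. The blue cells gather in the short-day preoptic columns, most of all in sample 6, and the darkest red ones in sample 1 of the long-day bed nucleus.

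A second list held 31 other genes of striatal projection neurons, among them neuropeptides, receptors and signalling enzymes, of which 21 were measured. In the bed nucleus 18 of the 21 had a higher mean than in the preoptic area and 3 a lower one, with a median log2 difference of 0.17, against 0.00 over all genes. Pde10a and Pdyn passed, both close to the threshold of 0.05, beside 0.464% of all probe sets called higher. Pde10a, the phosphodiesterase most typical of medium spiny neurons, read 53 and 54 in the short-day and 66, 33 and 35 in the long-day bed nucleus, against 28, 31 and 32 in the short-day and 35, 28 and 35 in the long-day preoptic area. It rose by 0.60 ± 0.14 (adjusted p = 0.0471 in limma), and its long-day groups overlapped. In the long-day bed nucleus only sample 1, an array that stood apart, was above every preoptic sample. No fit of Pde10a without that array is given. Pdyn, the precursor of dynorphin, an opioid peptide of neurons with D1 receptors, read 50 and 44 in the short-day and 50, 41 and 44 in the long-day bed nucleus, against 31, 38 and 30 in the short-day and 37, 33 and 38 in the long-day preoptic area. It rose by 0.42 ± 0.10 (adjusted p = 0.0499 in limma), and its nuclei did not overlap. The 3 lower genes were Isl1 at -0.14 ± 0.11, Tac1 at -0.05 ± 0.11 and Pde7b at -0.02 ± 0.12. None of the 21 was called lower. By day length none was called: in the preoptic area 6 were higher and 15 lower on short days (median -0.12), and in the bed nucleus 9 were higher and 12 lower (median -0.04).

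A list of the signalling cascade in which Ppp1r1b acts included G protein subunits, subunits of cAMP-dependent kinase, other kinases that act on DARPP-32, and phosphatases. Of 31 listed genes 25 were measured, 13 higher and 12 lower in the bed nucleus, with a median of 0.02. The genes called were 2 higher and 3 lower, beside 0.464% and 0.566% of all probe sets, and they are named here after their values were seen. Ppp1ca, a catalytic subunit of the phosphatase that DARPP-32 inhibits, rose by 0.49 ± 0.11 (adjusted p = 0.0256 in limma). Ppp3ca, a catalytic subunit of calcineurin, which removes the phosphate from DARPP-32, rose by 0.73 ± 0.17 (adjusted p = 0.0484 in limma), close to the threshold. Its nuclei overlapped: sample 1 of the long-day preoptic area, at 92, was above samples 2 and 3 of the long-day bed nucleus, at 76 and 79. Its highest value, 143, was in sample 1 of the long-day bed nucleus, an array that stood apart. No fit of Ppp3ca without that array is given. Ppp3cb, another catalytic subunit of calcineurin, fell: it read 145 and 89 in the short-day and 81, 132 and 116 in the long-day bed nucleus, against 297, 264 and 283 in the short-day and 181, 231 and 253 in the long-day preoptic area. Its log2 difference was -1.17 ± 0.14 (adjusted p = 2.1e-04 in limma), and the nuclei did not overlap. Gnas, the stimulatory G protein subunit, differed by -0.70 ± 0.11 (adjusted p = 0.0026 in limma) and Gnai2, an inhibitory one, by -0.56 ± 0.13 (adjusted p = 0.0322). By day length none of the 25 was called in either nucleus, with medians of -0.02 in the bed nucleus and 0.00 in the preoptic area.

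A further list held close relatives of the 8 genes, of which 13 of 20 were measured. In the bed nucleus 12 were higher and 1 lower, none was called, and the median was 0.20. The 6 with the largest differences among those with a mean above 19 were Rasd1 at 0.40 ± 0.14, Pde1a at 0.31 ± 0.12, Meis1 at 0.30 ± 0.10, Pde1c at 0.26 ± 0.09, Ppp1r1a at 0.23 ± 0.12 and Drd4 at 0.23 ± 0.12. Each was smaller than that of its relative in the set, 1.09 for Rasd2, 0.53 for Pde1b, 0.84 for Meis2 and 0.58 for Ppp1r1b, except for Drd4 beside Drd2 at 0.04. The 8 genes were listed with this comparison known, so their larger differences follow at least in part from that choice. These differences between relatives were not tested. By day length none was called, with 3 higher and 10 lower on short days in the preoptic area and 6 higher and 7 lower in the bed nucleus.

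Markers of other cell types were set beside the 8 genes. Of 26 measured hypothalamic and preoptic genes, 5 were higher and 21 lower in the bed nucleus. Called were 1 higher (Otp) and 5 lower (Gal, Lhx1, Lhx8, Ndn and Nnat), beside 0.464% and 0.566% of all probe sets. Otp was close to the threshold (adjusted p = 0.0487 in limma). Their summed intensity was 2584 to 2978 in the short-day and 2872 to 3274 in the long-day bed nucleus, against 3903 to 4738 in the short-day and 3613 to 4537 in the long-day preoptic area. Their mean log2 intensity was highest, at 5.04, in sample 6 of the short-day preoptic area, where that of the 8 genes was lowest, at 5.71. In the preoptic area 17 of the 26 were higher and 9 lower on short days, with a median of 0.07. Within the bed nucleus the lists shared their highest and lowest arrays, samples 1 and 3 of long days. Most of each sum was 1 gene, Ndn, at 1695 to 2255 in the bed nucleus and 2542 to 3604 in the preoptic area. The part of these cells in the results was not tested.

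All 7 measured oligodendrocyte genes were higher in the bed nucleus, with none called and a median of 0.30. Their summed intensity was 229 to 453 in the short-day and 271 to 413 in the long-day bed nucleus, against 178 to 277 in the short-day and 208 to 254 in the long-day preoptic area. Of 7 genes of striatal interneurons and cholinergic neurons, 5 were higher and 2 lower, with a median of 0.43. Nos1 was called higher, beside 0.464% of all probe sets. Of 6 thalamic genes, 3 were higher and 3 lower, with Prkcd called higher, beside the same 0.464%. By day length in the bed nucleus 1 was higher and 5 lower on short days, with a median of -0.75 and none called. Their summed intensity there was 241 and 207 on short days, and 203, 606 and 380 on long days, so that it was highest in samples 2 and 3 of long days, where the mean of the 8 genes was lowest in that nucleus, and lowest in sample 1, where that mean was highest. Of 7 cortical genes, 4 were higher and 3 lower, with none called. The part of these cells in the results was not tested either. General neuron genes were 4 higher and 8 lower, with a median of -0.04, and astrocyte, microglia, vessel and ependyma genes had medians of 0.02, 0.04, 0.12 and 0.09 with none called.

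**Figure D5:**
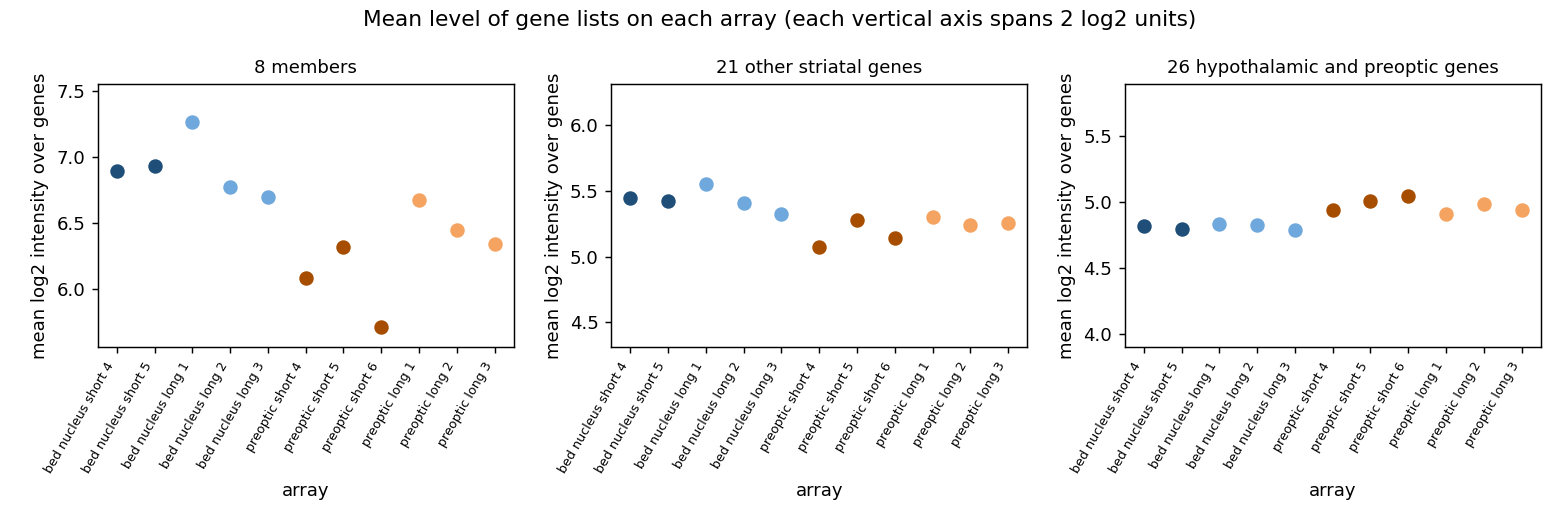
Mean log2 intensity on each of the 11 arrays of the 8 genes, of 21 other striatal projection neuron genes and of 26 hypothalamic and preoptic genes; the arrays run from short-day to long-day bed nucleus and then from short-day to long-day preoptic area, and each vertical axis spans 2 log2 units. The 8 genes vary most, and sample 6 of the short-day preoptic area is their lowest array and the highest of the hypothalamic and preoptic list.

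The genes most like the shared profile of the 8 were sought by root mean square distance between centred log2 values over the 11 arrays. Candidates were 10288 other probe sets with a single symbol and a mean log2 intensity above the median of all probe sets. The median distance of these probe sets was 0.44. The 8 nearest genes were Baiap2 at 0.10, Celf2 at 0.13, Bcl3 and Mef2c at 0.14, and Ddx5, St8sia3, Pmepa1 and Sgk1 at 0.15. Baiap2, which encodes a synaptic scaffold also called IRSp53, read 155 and 131 in the short-day and 196, 139 and 129 in the long-day bed nucleus, against 73, 99 and 68 in the short-day and 135, 110 and 103 in the long-day preoptic area. Mef2c, a transcription factor of neurons, read 88 and 75 in the short-day and 92, 71 and 56 in the long-day bed nucleus, against 43, 48 and 35 in the short-day and 63, 48 and 42 in the long-day preoptic area. Like the mean of the 8 genes, both had their highest value in sample 1 of the long-day bed nucleus and their lowest in sample 6 of the short-day preoptic area. All 8 nearest genes had a higher mean in the bed nucleus, by 0.49 to 0.74. Both this and the shared highest and lowest arrays follow from how the genes were found.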

How the data were processed

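The deposited values are linear probe set intensities made by the authors with RMA version 3.4, per the submitters' processing notes. They are whole numbers with a median of 19 on every array, which shows a normalization between arrays and a rounding, and 51.1% of them are 19 or less. The sources used here do not state its other settings. Because the probes were designed for the house mouse, sequence differences can lower the signal of single probe sets. The level of a probe set is thus no measure of how its gene stands to other genes. Levels served to pick probe sets, to mark dim ones and to sum lists, which share this limit. Depth has no meaning for arrays, and their number, 11, limits the precision. RNA was extracted with a column kit, per the labels' protocols.

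Of 22690 probe sets, 64 controls were set aside. Gene names came from the platform annotation: 20380 probe sets carry 1 symbol, 691 several and 1555 none, and only the first were named. No sequences were used. Groups came from the sample descriptions. The log2 of the intensity was taken without a pseudocount, since no value was 0. A model of 4 group means over all 11 arrays was fitted in limma 3.58.1 (lmFit, eBayes; R 4.3.3), with 7 residual and 12.9 prior degrees of freedom. It gave 6 comparisons with two-sided tests and Benjamini-Hochberg adjustment over 22626 probe sets, with a threshold of 0.05. The code was tested on simulated data.

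The genes, the further lists and the tests were chosen with earlier results of these data known. For each gene the probe set with the highest mean was given in full. From the list of other striatal genes those passing in any comparison were named, and also those lower in the bed nucleus. From the relatives the 6 with the largest nucleus difference and a mean above the array median were named. The 8 genes most like the shared profile were also named. The alternatives were quantile normalization, median centring, leaving out dim probe sets, an offset of 16, a trended and robust prior, array weights, fits to 1 nucleus, a threshold of 0.10, the sample number as a block, and leaving out single arrays. Leaving out both arrays that stood apart was added after seeing the data.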

Additional observations from a re-analysis of the deposited data

How the results depend on the processing

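The bed nucleus values by day length lie near 0, and those of 7 of the 8 genes changed sign in at least 1 alternative. Leaving out 1 array at a time, the short-minus-long log2 difference there ran from -0.38 to 0.076 for Bcl11b, -0.14 to 0.069 for Drd2, -0.039 to 0.19 for Meis2, -0.12 to 0.30 for Pde1b, -0.11 to 0.16 for Ppp1r1b, -0.27 to 0.25 for Rasd2, -0.17 to 0.28 for Rgs9 and 0.07 to 0.21 for Foxp1. It changed sign with quantile normalization for Rasd2 (0.069) and Rgs9 (0.14), with array weights for Rgs9 (0.020), and without both arrays that stood apart for Bcl11b (0.076), Rasd2 (0.25) and Rgs9 (0.28). No alternative called any of the 16 probe sets in that comparison. The cause was not tested. Drd2 has no value where dim probe sets were left out.

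Between the nuclei, 7 of the 16 probe sets were called over both day lengths, 4 with an offset of 16 and 3 without both arrays that stood apart, and 3 to 7 without 1 array. The 4 with the offset belonged to Rasd2 and Foxp1, and Ppp1r1b, Rgs9 and Meis2 were then not called. On short days 4 were called, 1 with the offset, 2 with a trended and robust prior and 0 to 5 without 1 array, and on long days none, against 1 with array weights, 1 at a threshold of 0.10 and 0 to 1 without 1 array. The medians over the 8 genes kept their sign without 1 array in each comparison except the bed nucleus by day length, where they ran from -0.11 to 0.18. Over all probe sets, 233 were called between the nuclei, against 402 at a threshold of 0.10, 121 without both arrays and 70 to 224 without 1 array. On short days 80 were called, against 140 with the offset, 177 at 0.10 and 6 to 106 without 1 array. On long days 29 were called, against 45 with the trended prior, 60 with array weights, 66 at 0.10, 12 without both arrays and 8 to 52 without 1 array. By day length in the bed nucleus 10 were called, against 6 with the offset, 0 with the bed nucleus arrays alone, 30 at 0.10, 18 without both arrays and 0 to 38 without 1 array. In the preoptic area none was called, against 1 with array weights and 0 to 1 without 1 array. For the difference of day-length effects none was called, against 4 without both arrays and 0 to 5 without 1 array. With fewer arrays fewer degrees of freedom remain, and the cause of the other shifts was not tested.

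Samples with the same number in both nuclei did not deviate together, with correlations of -0.02 to 0.12, so the numbers are not taken as pairs. With the sample number as a replicate block 7 of the 16 probe sets were called between the nuclei and 4 on short days, as without it, and 244 of all probe sets against 233.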

Other observations

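Interneuron genes that sit beside medium spiny neurons in the striatum were chosen for this description after their values were seen. Nos1, neuronal nitric oxide synthase, read 15 and 17 in the short-day and 15, 14 and 16 in the long-day bed nucleus, against 12, 10 and 12 in the short-day and 11, 11 and 13 in the long-day preoptic area. Its nuclei did not overlap and it rose by 0.43 ± 0.10 (adjusted p = 0.0349 in limma), although every value is below the array median of 19. Npy, the neuropeptide of the same striatal interneurons, read 228 and 310 in the short-day and 487, 196 and 249 in the long-day bed nucleus, against 82, 198 and 65 in the short-day and 237, 258 and 131 in the long-day preoptic area. Its log2 difference between the nuclei was 0.95 ± 0.25 (adjusted p = 0.0813 in limma), and the nuclei overlapped. Sst, somatostatin, differed by 0.53 ± 0.18 (adjusted p = 0.190 in limma). Pvalb, parvalbumin, ranged from 47 to 327 in the bed nucleus and from 48 to 135 in the preoptic area, with no separation between them. Of the other 3 measured genes of the list, those of cholinergic and dopamine neurons, Slc5a7 differed by -0.17 ± 0.11, Th by -0.15 ± 0.10 and Slc18a3 by 0.03 ± 0.10, with none called.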
